A study of Mus musculus with 6 samples.

Results

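Secreted and membrane proteins enter the endoplasmic reticulum (ER), fold there and leave in coated vesicles, and the genes of that route were followed in mouse liver after treatment with atractylodin, a polyacetylene of Atractylodes plants. The group was defined by gene symbol: every row of the count files that began with Sec, Ssr, Srp, Spcs or Pdia followed by a digit. Added to these were 8 genes of the COPI coat (without Arcn1), and Calr, Canx, Hspa5, Hsp90b1, Sar1a and Sar1b. This gave 63 of 23282 rows, of which 58 had enough counts to be tested. The symbols say nothing of direction, but the group was put together with the contrast of atractylodin against vehicle already known. Its own fold changes, calls and counts under a p threshold in that contrast are therefore a description and support nothing. No member's own p is given.

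Both groups were male C57BL/6N mice (C57BL/6 in the labels of the samples) that began a high-fat diet at 8 weeks of age, which lasted 12 weeks. Oral dosing with vehicle, or with atractylodin at 10 mg/kg, started after 8 of those weeks and was given on 5 days per week for 4 weeks. There were 3 vehicle and 3 atractylodin libraries of whole liver, made by QuantSeq, which reads the 3' end of each transcript. All mice were on the same diet, no lean group was analysed here, and the labels do not say that each library came from a separate animal, so the spread between libraries may be partly technical.

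In hepatocytes, which secrete most plasma proteins, the signal recognition particle (SRP) brings a ribosome with its nascent chain to the Sec61 channel, and signal peptidase removes the signal peptide. Chaperones such as BiP, the product of Hspa5, the lectins calreticulin and calnexin, and protein disulfide isomerases fold the chain. COPII coats carry the cargo to the Golgi and COPI coats return escaped ER proteins. When unfolded protein builds up, the sensors ATF6, IRE1 and PERK raise many of these genes, in part through the ER stress response element (ERSE) of their promoters.

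The promoters of the chaperone members held that element, and they are shown because the members with it were among those described next. A window of 250 bases before to 50 bases after the start (RefSeq, GRCm38.p6) was found for 56 of the 63 members. The ERSE was searched on both strands as CCAAT and CCACG with 9 bases of any kind between them, in capitals below. They were in the windows of 5 members (8.93%), against 37 of all 27025 genes with a window (0.137%) and 19 of 9462 tested genes with a window (0.201%). Those 5 were Hspa5, Calr, Hsp90b1, Canx and Pdia6, which include all 4 members of the chaperone and lectin class. Each stretch is written 5' to 3' on the strand of its gene, at chr2:34772003-34772065 for Hspa5 (plus strand), chr8:84847053-84847115 for Calr (minus), chr10:86705616-86705678 and chr10:86705511-86705573 for Hsp90b1 (minus), chr11:50325778-50325840 for Canx (minus) and chr12:17266469-17266531 for Pdia6 (plus). In Calr and in the second Hsp90b1 stretch the letters stand as their reverse complement.
Hspa5: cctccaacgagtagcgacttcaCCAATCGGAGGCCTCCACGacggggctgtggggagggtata
Calr: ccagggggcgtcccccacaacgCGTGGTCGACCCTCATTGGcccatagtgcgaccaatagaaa
Hsp90b1, far: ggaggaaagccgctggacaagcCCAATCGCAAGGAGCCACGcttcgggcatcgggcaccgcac
Hsp90b1, near: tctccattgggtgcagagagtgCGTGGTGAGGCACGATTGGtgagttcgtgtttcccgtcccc
Canx: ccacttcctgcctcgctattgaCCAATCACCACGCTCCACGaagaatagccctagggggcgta
Pdia6: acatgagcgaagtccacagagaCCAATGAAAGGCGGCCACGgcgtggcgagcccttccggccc

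A shorter element bound by factors of the same response, the UPRE core TGACGTGG, marked other members. Searched on both strands, it was in 5 of the 56 windows (8.93%), against 193 of 27025 (0.714%) and 91 of 9462 tested genes (0.962%). No member held both. These 5 were all coat genes: Sec16b, Sec23a, Sec24d, Copb1 and Copb2. The stretches shown lie at chr1:157506741-157506770 for Sec16b (plus strand), chr3:123267459-123267488 for Sec24d (plus) and chr7:114254690-114254719 for Copb1 (minus, where the letters stand as their reverse complement). A match of letters is a description of the window and not a shown binding site.
Sec16b: ttctgtgtggcTGACGTGGcacggcagttt
Sec24d: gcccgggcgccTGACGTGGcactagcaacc
Copb1: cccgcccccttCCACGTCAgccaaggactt

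Library depth bears on every value below. Total counts were 1831461 in vehicle 1 and 9871762 to 12565393 in the other 5 libraries. Of the 58 tested members, 32 (55.2%) had their highest level in vehicle 1, against 21.6% of all 12505 tested rows. This shallow library thus stood at the top of the vehicle group for many of them, and values without it are given beside part of the results. Hepatocyte markers were abundant in every library, with Alb at 47792 to 56104 CPM (the count of a gene relative to the library's total, after TMM, a trimmed mean scaling). None of the 7 passed an adjusted p of 0.05 in edgeR, DESeq2 or limma-voom (2 had an unadjusted p under 0.05 in edgeR). The share of all rows at an unadjusted p under 0.05 is not given. Counts at that threshold, here and below, therefore have no background and nothing is read from them. Of the 8 listed plasma and B cell markers only Sdc1, which hepatocytes also express, could be tested. It was at 124, 106 and 120.3 CPM with vehicle and 105, 101 and 89.3 CPM with atractylodin, separate but not called (edgeR adjusted p = 0.172). The other 6 in the files were at 1.61 CPM or less in every library, where 3 counts are worth 0.243 to 1.61 CPM, and of these Cd79b was lower in all 3 atractylodin libraries. Summed cholangiocyte markers were 41.6 to 51.7 CPM with vehicle and 21.8 to 27.1 CPM with atractylodin. Of 3 tested markers Sox9 and Spp1 were called lower, and these 2 made up most of the sums. Their means were 28.3 and 14.9 CPM with vehicle and 14.3 and 6.68 CPM with atractylodin. The third, Epcam, was at 2.49 CPM or less and overlapped between groups (log2 0.05 ± 0.55). Krt7, Krt19 and Cftr were too low to be tested. Pancreatic acinar genes, of which 2 of 11 could be tested, summed to 15.3 to 23.8 CPM with vehicle and to 38.8, 15.3 and 21.5 CPM in atractylodin 1, 2 and 3. Among them Cpb1 was called higher (3.39-fold, edgeR adjusted p = 0.0319). Cela1, the other tested gene and the most abundant, went the other way. Its mean was 18.4 CPM with vehicle and 11.3 CPM with atractylodin, with overlapping groups (log2 -0.67 ± 0.22, edgeR adjusted p = 0.0826). Cela2a was higher in 3 of 3 libraries, Amy2a5 reached 7.17 CPM in atractylodin 1 and Prss1 was at 0 throughout. Without a filter on low counts 5 acinar genes were called higher and 1 lower. Of 7 endothelial markers 1 was called higher and 1 lower, with sums of 283 to 301 CPM with vehicle and 265 to 294 CPM with atractylodin. No stellate cell marker was called in edgeR, where 3 of 6 had an unadjusted p under 0.05, but DESeq2 called 2 lower and limma-voom 1, with sums of 411 to 527 CPM and 344 to 464 CPM. No Kupffer cell marker of 7 was called in edgeR, DESeq2 or limma-voom, with 1 at an unadjusted p under 0.05 in edgeR (sums of 195 to 287 CPM and 163 to 258 CPM). Their part in the results below was not tested. In whole tissue, fewer cells of a type and less RNA per cell cannot be told apart.

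Among the members, the genes of the Sec61 channel, of calreticulin, GRP94 and the disulfide isomerase Pdia6 were lower with atractylodin, while most SRP and COPII genes differed little. The main fit was edgeR's quasi-likelihood test of all rows with all 6 libraries. Calls in edgeR, above and below, are from this fit unless another setting is named. In it, 9 of 58 tested members passed an adjusted p of 0.05 with lower values and 1 with higher values. The background was 7.25% of all tested rows called in either direction, 3.33% called lower and 3.92% called higher. Estimates were below 0 for 44 of 58 members, against 50.2% of all rows. The median log2 fold change (atractylodin against vehicle) was -0.19, against -0.0015 over all tested rows, and -0.17 without vehicle 1. All 3 atractylodin libraries lay below all 3 vehicle libraries for 19 members (12.6% of all rows did so) and above them for 3 (13.5% of all rows). Since the contrast was known when the group was chosen, nothing is read from these shares. Summed over the 63 members, the level was 8559, 6707 and 7789 CPM in vehicle 1, 2 and 3 and 6074, 6216 and 6562 CPM in atractylodin 1, 2 and 3, so the groups did not overlap.

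**Figure D1:**
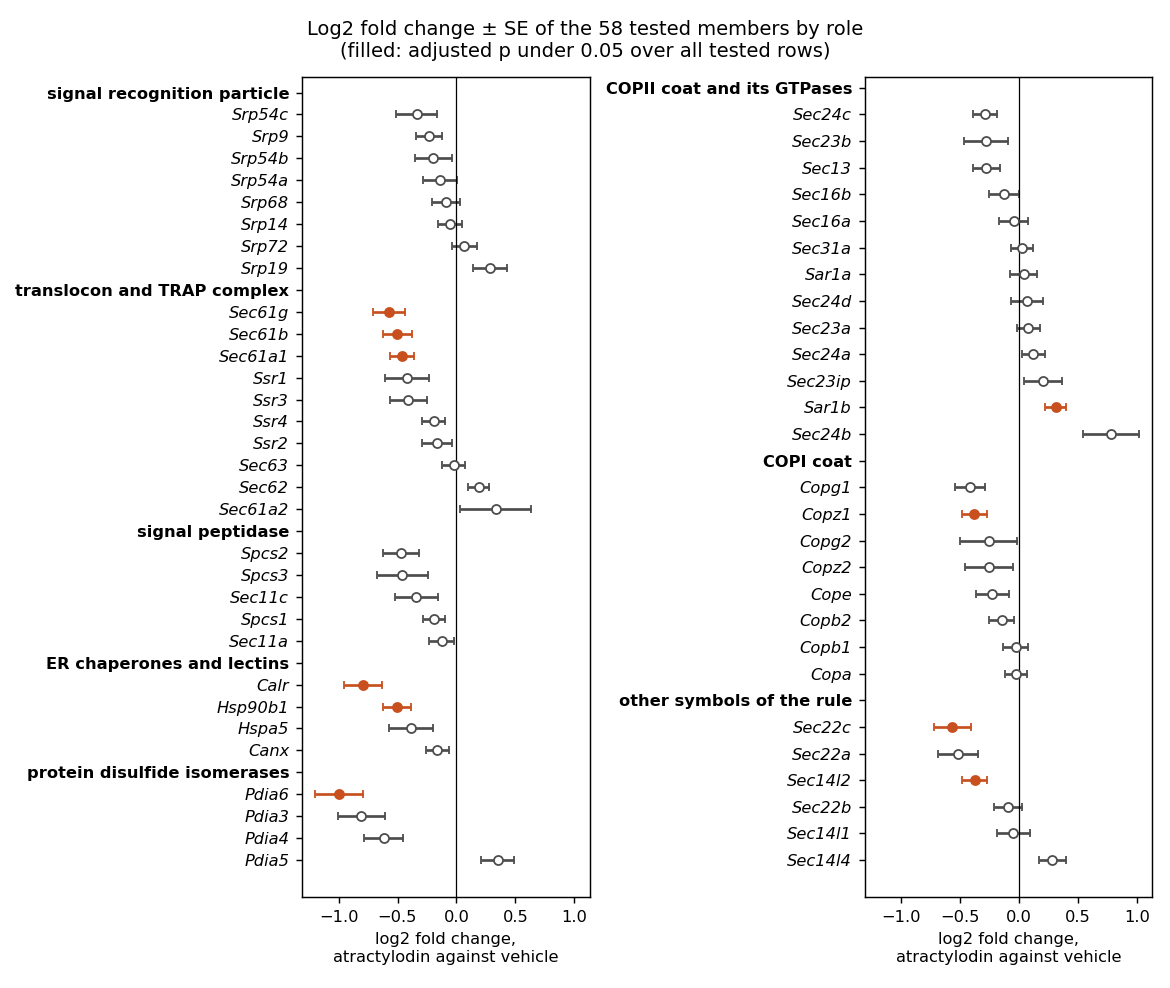
Log2 fold change (atractylodin against vehicle, x axis) with its SE for the 58 tested members, grouped by role, from 3 libraries per group. Filled points mark the 10 members past an adjusted p of 0.05 over all tested rows: 9 lie left of 0 and Sar1b lies right of it.

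The SRP members came first in the route and none was called. The class holds Srp9 and Srp14, which form the Alu domain, Srp19, Srp68 and Srp72, and 3 rows for the signal-binding subunit, Srp54a, Srp54b and Srp54c. Estimates of all 8 lay between -0.34 (Srp54c) and 0.28 (Srp19), with a median of -0.11. No SRP member passed in edgeR, DESeq2 or limma-voom, and 1 had an unadjusted p under 0.05 in edgeR. Srp14 was at 103, 92.9 and 93.7 CPM in the vehicle libraries and 102, 91.9 and 83.3 CPM in the atractylodin libraries. Srp72 was at 137, 106 and 115 CPM with vehicle and 131, 119 and 122 CPM with atractylodin. For both genes the groups overlapped. The rows Srp54a, Srp54b and Srp54c are near-identical neighbours on chromosome 12 (55080262 to 55263836 in GENCODE M21 on GRCm38), so the split of reads among them is uncertain.

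The 3 subunits of the channel itself all fell. Sec61a1, the pore-forming alpha subunit (chromosome 6, 88503579 to 88518905), was at 289.6, 231 and 272 CPM in the vehicle libraries and 184, 184 and 206 CPM in the atractylodin libraries. Every atractylodin library was below every vehicle library, and the log2 fold change was -0.46 ± 0.10 (SE), a 1.38-fold fall. Sec61b, the beta subunit (chromosome 4, 47474658 to 47483242), was at 125, 89.8 and 97.2 CPM with vehicle and 71.6, 64.0 and 80.4 CPM with atractylodin (log2 -0.50 ± 0.12). Sec61g, the gamma subunit (chromosome 11, 16500530 to 16508484), was at 102, 76.2 and 74.1 CPM with vehicle and 55.9, 47.2 and 63.1 CPM with atractylodin (log2 -0.57 ± 0.13). For both small subunits vehicle 1 was the highest library and the groups did not overlap. Without vehicle 1 the estimates of the 3 subunits were -0.39, -0.37 and -0.44 in the same order, and none was called.

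The second alpha subunit gene, Sec61a2, had few counts, 252 over the 6 libraries. It was at 4.31, 3.78 and 3.80 CPM with vehicle and 5.88, 4.80 and 4.01 CPM with atractylodin, with overlapping groups and an estimate of 0.33 ± 0.30. Sec62 and Sec63, which help some chains into the channel after translation and recruit BiP, did not follow the channel subunits. Sec62 was at 338, 342 and 362 CPM with vehicle and 383, 415 and 391 CPM with atractylodin, all 3 higher but not called (0.19 ± 0.09). Sec63 was at 176, 142 and 168 CPM with vehicle and 155, 160.1 and 162 CPM with atractylodin, with overlapping groups (-0.02 ± 0.10).

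The 4 genes of the translocon-associated TRAP complex, which sits beside the channel, had lower estimates, and none was called in the main fit. They ran from -0.42 ± 0.18 for Ssr1 and -0.41 ± 0.15 for Ssr3 to -0.19 ± 0.10 for Ssr4 and -0.17 ± 0.12 for Ssr2, and the groups overlapped for each. Ssr3 was at 138, 131 and 146 CPM with vehicle and 83.1, 95.4 and 133 CPM with atractylodin, so that atractylodin 3 alone lay within the vehicle range. Without atractylodin 3 both Ssr3 and Ssr1 were called lower (-0.63 and -0.60), as they were without a filter. Ssr3 was also called lower under total count scaling and with the replicate number as a block. Without vehicle 1 the estimates of Ssr3 and Ssr1 were -0.41 and -0.27, and neither was called. The 5 signal peptidase genes also had lower estimates, from -0.12 ± 0.11 for the catalytic Sec11a to -0.47 ± 0.15 for Spcs2. None passed in the main fit, DESeq2 or limma-voom, with 1 at an unadjusted p under 0.05 in the main fit. Spcs2 was at 91.5, 70.1 and 91.4 CPM with vehicle and 46.8, 64.0 and 69.9 CPM with atractylodin, without overlap. It was called lower without vehicle 2 or without atractylodin 3 (-0.60 and -0.59), under total count scaling and without a filter. Without vehicle 1 its estimate was -0.42, which was not called. Spcs1 was at 98.5, 94.8 and 104 CPM with vehicle and 83.7, 93.4 and 83.7 CPM with atractylodin, also without overlap, and Spcs3 was likewise separated (-0.46 ± 0.22).

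Within the chaperone class, calreticulin and GRP94 fell while BiP and calnexin were not called in the main fit. Calr, a calcium-binding lectin chaperone of glycoproteins (chromosome 8, 84841850 to 84846934), was at 678, 453 and 615 CPM in the vehicle libraries and 329, 286 and 389 CPM in the atractylodin libraries. All 3 atractylodin libraries were lower, by a log2 fold change of -0.79 ± 0.16, a 1.73-fold fall that was -0.67 and still called without vehicle 1. Hsp90b1, which encodes the HSP90 of the ER lumen, GRP94 (chromosome 10, 86690209 to 86705509), was at 1089.5, 757 and 870.3 CPM with vehicle and 606, 634 and 668 CPM with atractylodin. The groups were separate and the log2 fold change was -0.51 ± 0.12, or -0.35 without vehicle 1, where it was no longer called. Gm15344 and Gm25745 overlap Hsp90b1 on its strand in the annotation, so reads could be shared among them.

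BiP and calnexin carry the same promoter letters but overlapped between groups. Hspa5, encoding BiP, the HSP70 of the ER lumen and the usual gauge of ER stress (chromosome 2, 34771970 to 34777547), was at 1298, 743 and 1027 CPM with vehicle and 733, 748 and 863 CPM with atractylodin. Vehicle 2 lay among the atractylodin libraries, and the estimate was -0.38 ± 0.19, which was -0.18 without vehicle 1 and -0.57, then called lower, without vehicle 2. Hspa5 was also called lower without a filter on low counts (-0.37). Canx, encoding the membrane-bound lectin calnexin, was at 223, 201 and 243 CPM with vehicle and 189, 201 and 207 CPM with atractylodin (-0.16 ± 0.10). The 5 members with ERSE letters thus ranged from -0.16 (Canx) to -0.997 (Pdia6), with a median of -0.51 and 3 calls, all lower. The 5 members with the UPRE core ranged from -0.15 to 0.08 and none was called. The 41 tested members whose window held neither had a median of -0.20, with 5 called lower and 1 higher, and the remaining 7 had no window.

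**Figure D2:**
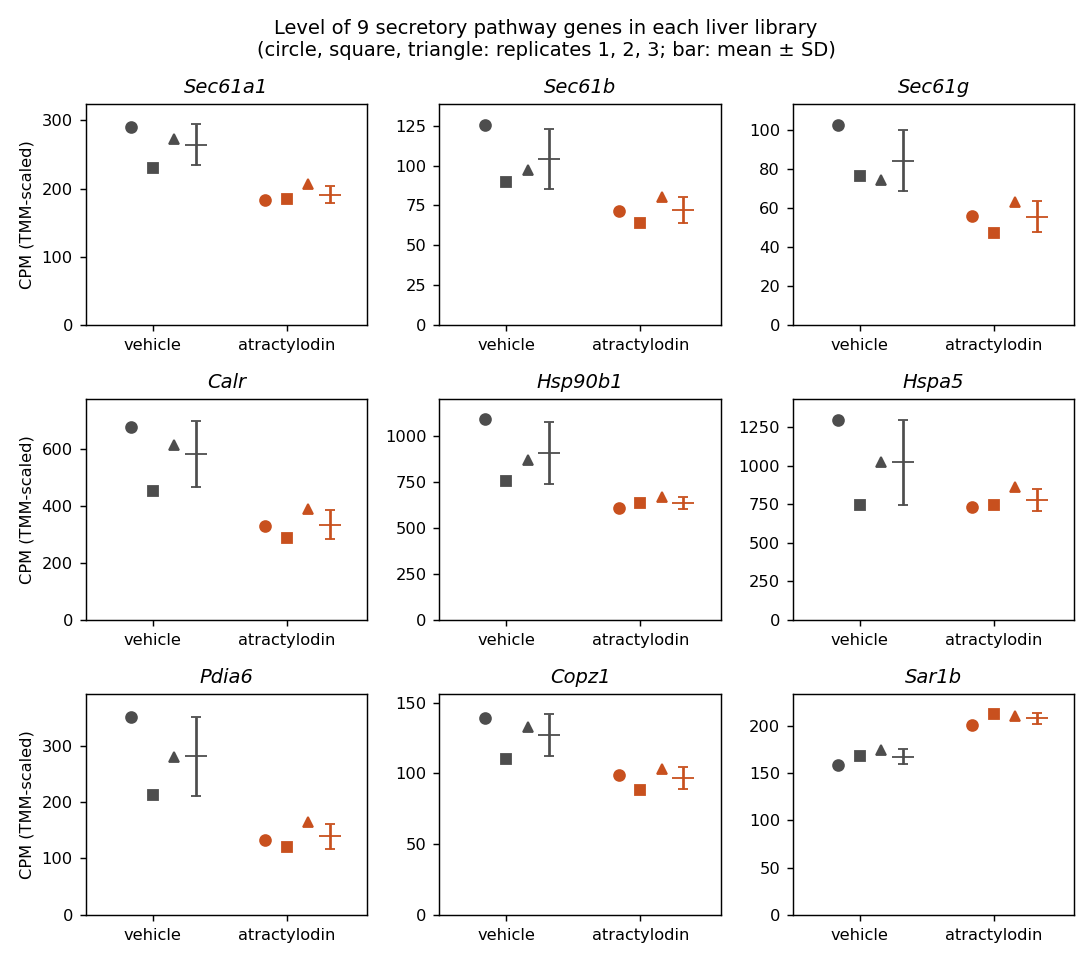
Level in CPM (y axis, from 0) of 9 members in each vehicle (grey) and atractylodin (orange) library, with the mean ± SD of 3. Vehicle 1 (circle) is the highest library for the 8 genes other than Sar1b, and the groups overlap only for Hspa5.

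Of the disulfide isomerases only Pdia6 was called in the main fit, and it fell. Pdia6 (chromosome 12, 17266545 to 17284770), whose product forms disulfide bonds and works with BiP, was at 352, 212 and 279 CPM in the vehicle libraries and 133, 121 and 164 CPM in the atractylodin libraries. It showed the lowest estimate of all 58 tested members, with a log2 fold change of -0.997 ± 0.20, a 2.00-fold fall that was -0.81 and still called without vehicle 1. Pdia3, the isomerase that pairs with calreticulin and calnexin, was at 209, 137 and 202 CPM with vehicle and 87.8, 97.4 and 125 CPM with atractylodin. Pdia4, a large isomerase of the same chaperone assemblies, was at 138, 79.8 and 106 CPM with vehicle and 65.1, 68.6 and 72.6 CPM with atractylodin. For both the groups were separate, with estimates of -0.81 ± 0.20 and -0.62 ± 0.17, yet neither was called in the main fit. DESeq2 called 3 isomerase members lower, both of these among them, and limma-voom called Pdia3 but not Pdia4. Both were also called lower in edgeR under upper quartile and total count scaling, without a filter, and with the replicate number as a block. Pdia3 was called lower in edgeR without vehicle 2 or without atractylodin 3 (-0.98 and -0.96), and Pdia4 without vehicle 2 (-0.80). Without vehicle 1 the estimates of Pdia3 and Pdia4 were -0.71 and -0.44, and neither was called.

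Pdia5 stood apart from these 3. It was at 37.7, 29.5 and 39.6 CPM with vehicle and 38.2, 49.7 and 46.9 CPM with atractylodin, with an estimate of 0.35 ± 0.14 that was not called, and atractylodin 1 lay within the vehicle range. Pdia2, known from pancreas, had no count in any library, which allows up to 0.243 to 1.61 CPM by library. Pdia5 and Sec22a are neighbours on chromosome 16, 33393 bases apart on the same strand, and their estimates had opposite signs (Sec22a -0.52 ± 0.17, groups overlapping, neither called).

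Of the COPII genes only Sar1b was called in the main fit, and it rose. Sar1b (chromosome 11, 51763687 to 51791925) encodes a GTPase that starts the coat and is needed for the export of large lipoproteins. It was at 159, 168 and 175 CPM in the vehicle libraries and 201, 213 and 209.9 CPM in the atractylodin libraries, a log2 fold change of 0.31 ± 0.09 (1.24-fold). The groups were separate, but the call was lost whichever of the 6 libraries was left out. Its paralog Sar1a was at 59.2, 48.4 and 51.6 CPM with vehicle and 57.8, 49.1 and 54.0 CPM with atractylodin, with overlapping groups (0.04 ± 0.11).

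Sec24a, a cargo adaptor of the same coat, lies 52 bases from Sar1b on the opposite strand and points away from it. It was at 131, 110.4 and 109 CPM with vehicle and 128, 127 and 122 CPM with atractylodin, with overlapping groups (0.12 ± 0.10). The 4 Sec24 adaptors differed in sign. Sec24b, the lowest in counts, was at 4.31, 8.76 and 6.23 CPM with vehicle and 10.4, 14.4 and 11.2 CPM with atractylodin, with separate groups and the highest estimate of all members (0.78 ± 0.24, not called). It was called higher without vehicle 2 (1.06), without a filter on low counts (0.79) and with the replicate number as a block (0.86). Sec24c was at 80.7, 78.7 and 79.3 CPM with vehicle and 70.4, 60.8 and 63.5 CPM with atractylodin, with separate groups and an estimate of the other sign (-0.29 ± 0.10, not called). Sec24d barely differed (0.07 ± 0.13).

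The remaining COPII members were not called. The inner coat genes Sec23a and Sec23b had estimates of 0.08 ± 0.10 and -0.29 ± 0.19, the outer coat genes Sec31a and Sec13 of 0.03 ± 0.09 and -0.28 ± 0.12, and the scaffold genes Sec16a and Sec16b of -0.05 ± 0.12 and -0.13 ± 0.13. Sec31a was at 133, 138 and 119 CPM with vehicle and 131, 134 and 131 CPM with atractylodin, with overlapping groups. Of these genes only Sec13 was separated between groups. Sec23ip, which binds the inner coat, had an estimate of 0.20 ± 0.16, and Sec31b, with 22 counts in all, was too low to be tested. Over the 13 tested COPII genes the median was 0.04. Total count scaling gave a median of -0.04 instead, against -0.09 over all tested rows in that setting. There Sar1a, Sec23a, Sec24d and Sec31a were below 0, Sec24c was called lower and Sar1b was not called.

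All 8 COPI coat genes that the rule took had estimates below 0, and 1 was called in edgeR. Copz1, the zeta subunit (chromosome 15, 103272714 to 103299868), was at 139, 110.4 and 133 CPM in the vehicle libraries and 99.1, 88.4 and 103 CPM in the atractylodin libraries. This was a fall of log2 -0.38 ± 0.10 without overlap, or -0.32 and not called without vehicle 1. Copg1, the gamma subunit, was at 33.4, 33.9 and 37.5 CPM with vehicle and 26.6, 27.6 and 24.7 CPM with atractylodin, also separate but not called in edgeR (-0.42 ± 0.13). The called gene changed with the tool: limma-voom called Copg1 lower and not Copz1, and Copg1 was also called under upper quartile and total count scaling and at a mean CPM of at least 5. Their paralogs Copz2 and Copg2 had fewer counts and overlapping groups (-0.26 ± 0.20 and -0.26 ± 0.24). The alpha and beta subunit genes showed the smallest differences of these 8. Copa was at 147, 181 and 165 CPM with vehicle and 166, 160 and 161 CPM with atractylodin (-0.03 ± 0.09), Copb1 had an estimate of -0.03 ± 0.10 and Copb2 of -0.15 ± 0.11. The last of the 8, Cope, overlapped as well (-0.23 ± 0.14). The estimate of Copa was 0.05 without vehicle 2, that of Copg2 was 0.08 without vehicle 3, and that of Copb1 was between 0.01 and 0.03 without vehicle 1, vehicle 3 or atractylodin 1.

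The rule also took in 9 rows whose products are not coats or translocation factors. Sec22c, a relative of the vesicle fusion protein Sec22b (chromosome 9, 121680045 to 121705490), was at 20.5, 21.7 and 19.2 CPM with vehicle and 13.1, 14.7 and 13.7 CPM with atractylodin. It fell by 0.57 ± 0.16 on the log2 scale without overlap, a call lost in all 6 fits that left out a library. Sec22b, itself a fusion protein between ER and Golgi, had an estimate of -0.10 ± 0.12. Sec14l2, which encodes a lipid-binding protein also called supernatant protein factor (chromosome 11, 4097039 to 4123415), was at 529.7, 478 and 544 CPM with vehicle and 406, 454 and 333 CPM with atractylodin, a fall of log2 -0.38 ± 0.11. Sec14l4, on the same chromosome with only Sec14l3 of the members between them, had an estimate of the other sign. Sec14l4 was at 174, 146 and 197 CPM with vehicle and 189, 230.2 and 209 CPM with atractylodin (0.28 ± 0.11, not called, groups overlapping). Sec14l1 differed little (-0.05 ± 0.14), while Sec14l3, Sec1 and Sec14l5 had 12, 5 and 0 counts over the 6 libraries and were not tested.

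The calls depended on single libraries, while the 10 called members kept their sign in every alternative. The 9 falls became 2 without vehicle 1, vehicle 3 or atractylodin 1, 4 without atractylodin 2, 12 without vehicle 2 and 11 without atractylodin 3. Without vehicle 1 the 2 called members were Calr and Pdia6. Of the 10 called members, Hsp90b1 lost its call in 1 of the 6 such fits, Calr and Sec61a1 in 2, Pdia6 and Sec61g in 3, Sec61b, Copz1 and Sec14l2 in 4, and Sec22c and Sar1b in 6. Scaling by total counts, which shifted the median of all rows by -0.09, gave 16 falls and 0 rises, and testing without a filter on low counts gave 16 falls and 2 rises. The background percentages given above are those of the main fit alone. The counts of this paragraph thus stand without a background for their own setting, and nothing about the members is read from them.

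**Figure D3:**
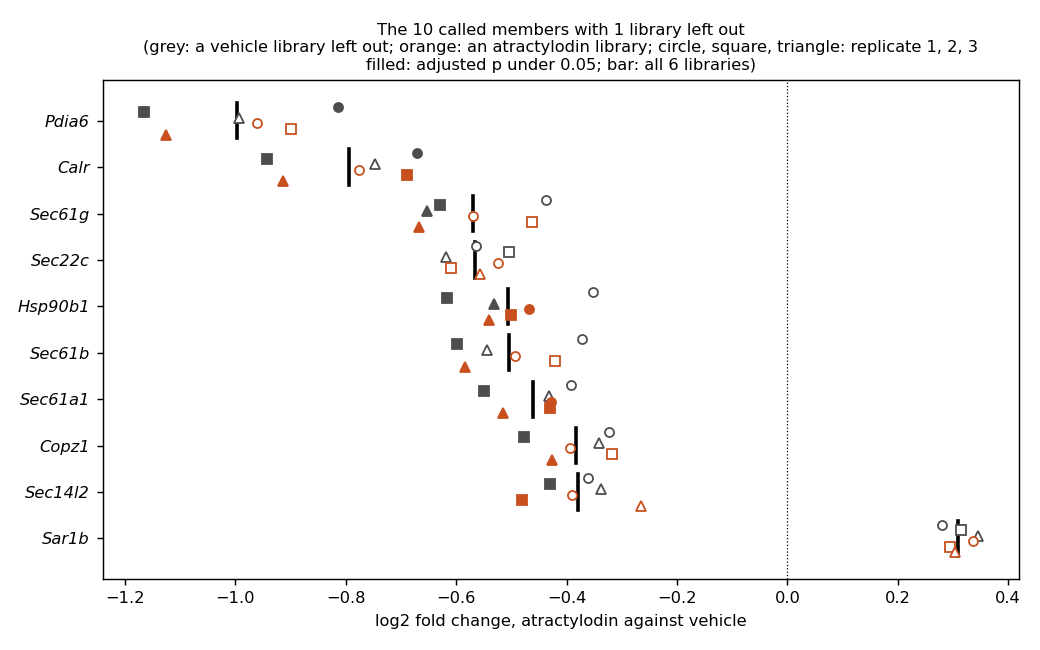
Log2 fold change (x axis) of the 10 called members with all 6 libraries (bar) and with each library left out (points, filled where the adjusted p stayed under 0.05). Every point keeps the sign of its bar, and leaving out vehicle 1 (grey circle) gives a value nearer 0 than all 6 libraries do for each of the 10, by the least for Sec22c.

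Genes of the same route that the rule did not take were read from 6 lists of 148 genes, 147 of them in the files and 144 tested. Of these, 12 fell and 2 rose in edgeR (backgrounds as above), with a median log2 fold change of -0.11. Without vehicle 1, 6 fell and 2 rose, and 3 fell without vehicle 3 and 6 without atractylodin 2. Under scaling by total counts 21 fell, and without a filter 19 fell and 4 rose. The backgrounds are those of the main fit, so the counts under these alternatives stand without one. These lists were also written with results on the whole table known.

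The oligosaccharyltransferase, which attaches N-glycans beside the Sec61 channel, had 4 of 11 tested genes called lower and none higher (median -0.30). Tmem258, a small subunit, was at 72.1, 56.4 and 53.7 CPM with vehicle and 35.9, 35.6 and 42.8 CPM with atractylodin, lower in 3 of 3 libraries (log2 -0.64 ± 0.13, edgeR adjusted p = 0.00491), and kept its call in all 6 fits that left out a library. Magt1, a subunit with oxidoreductase activity, was at 201, 146 and 180.3 CPM with vehicle and 118, 131 and 128 CPM with atractylodin (log2 -0.47 ± 0.11, edgeR adjusted p = 0.013). This call was lost in 2 of those fits, among them that without vehicle 1 (-0.37). The other falls, of Ostc (1.35-fold) and Ddost (1.43-fold), were lost in 3 and 5 of those fits. Without vehicle 1, 1 gene of the list fell. Among other targeting and insertion factors 1 of 16 fell: Tram1, a membrane protein at the channel, went from 118, 118 and 127 CPM with vehicle to 79.5, 84.5 and 99.2 CPM with atractylodin (log2 -0.47 ± 0.10, edgeR adjusted p = 0.00782). The call of Tram1 was lost in 1 of those fits.

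Of 32 other ER folding genes 3 fell and none rose (median -0.16). Ppib, encoding the prolyl isomerase cyclophilin B, was at 165, 128 and 151 CPM with vehicle and 91.6, 91.5 and 109.8 CPM with atractylodin (log2 -0.59 ± 0.11, edgeR adjusted p = 0.00298), a call kept in every fit that left out a library. Txndc5, a disulfide isomerase with UPRE core letters in its window, was at 52.2, 52.2 and 54.2 CPM with vehicle and 39.2, 34.0 and 37.6 CPM with atractylodin (log2 -0.52 ± 0.11, edgeR adjusted p = 0.00782). Over all 6 lists, 7 of 115 genes with a window (6.09%) held these letters, and only Txndc5 was called. Of the others Vcp was higher in all 3 atractylodin libraries, and Txndc11 and Gbf1 were lower in all 3. Arf1, Kdelr3 and Stx5a overlapped between groups. P4hb, the first protein disulfide isomerase described, was the last of the falls (1.32-fold, edgeR adjusted p = 0.0187). With 1 library left out, the call of Txndc5 was lost in 1 fit and that of P4hb in 3. Named after their values were seen, the BiP cofactor genes Sdf2l1 and Hyou1 showed the lowest estimates of the list (-1.43 ± 0.34 and -0.99 ± 0.28). Sdf2l1 was at 45.8, 26.4 and 38.6 CPM with vehicle and 8.97, 11.1 and 19.4 CPM with atractylodin, separate but not called (edgeR adjusted p = 0.0587). Sdf2l1 was called lower in 9 of the 14 alternatives and Hyou1 in 5. For both genes these included DESeq2, limma-voom, the fit without a filter and the replicate number as a block. Of the fits that left out a library, Sdf2l1 was called without vehicle 2 or without atractylodin 3 (-1.64 and -1.83), and Hyou1 without vehicle 2 (-1.25). Without vehicle 1 the estimates of Sdf2l1 and Hyou1 were -1.29 and -0.79, and neither was called. DESeq2 and limma-voom each called 5 genes of this list lower.

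The listed genes of the unfolded protein response, among them its sensors and transcription factors, were not called in the main fit. None of 13 passed in the main fit, DESeq2 or limma-voom, and 3 had an unadjusted p under 0.05 in the main fit. In edgeR without a filter on low counts 2 rose. Named after their values were seen, Xbp1, the factor made by IRE1 splicing, was at 142, 119.6 and 129.6 CPM with vehicle and 92.0, 109.5 and 156 CPM with atractylodin, and Atf6 at 70.5, 65.3 and 64.2 CPM with vehicle and 74.1, 60.6 and 85.9 CPM with atractylodin, both with overlapping groups. A 3' count does not separate spliced from unspliced Xbp1. Atf4, the factor translated on PERK signalling, and Ppp1r15a, its feedback phosphatase subunit, had higher estimates (0.38 ± 0.13 and 0.62 ± 0.19, edgeR adjusted p = 0.0904 and 0.055). Atf4 was called higher without vehicle 3 (0.54), without atractylodin 2 (0.48) and with the replicate number as a block (0.39). Atf4 and Ppp1r15a were the 2 that rose without a filter.

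ER-associated degradation, which returns misfolded protein to the cytosol, held 1 rise and 1 fall among 21 genes (median -0.01). Herpud1, a membrane protein of the ubiquitin ligase complex, was at 409, 462 and 407 CPM with vehicle and 1047, 680.4 and 963 CPM with atractylodin, higher in 3 of 3 libraries (log2 1.07 ± 0.14, edgeR adjusted p = 0.000945). Derl3, an ER membrane protein of the same complex with ERSE letters in its window, was at 10.2, 7.04 and 4.77 CPM with vehicle and 0.299, 0.835 and 1.84 CPM with atractylodin, lower in 3 of 3 (log2 -2.72 ± 0.49, edgeR adjusted p = 0.0032). Its level in atractylodin 1 was at the floor of 3 counts. Both calls held in all 6 fits that left out a library, and that of Derl3 has no value at a mean CPM of at least 5, since it was not tested there. The other listed genes with ERSE letters, Dnajc3, Creld2 and Syvn1, overlapped between groups.

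Among 51 coat regulators, cargo receptors and tethers 3 fell and 1 rose (median -0.11). Mia3, which encodes TANGO1, a receptor that loads collagens and other large cargo into COPII carriers, was at 288, 287 and 284 CPM with vehicle and 439.5, 516 and 397 CPM with atractylodin (log2 0.65 ± 0.10, edgeR adjusted p = 0.00071), a rise called in all 14 alternatives. Ergic1, a cycling protein between ER and Golgi, was at 52.2, 63.0 and 61.9 CPM with vehicle and 43.8, 42.6 and 45.2 CPM with atractylodin (log2 -0.45 ± 0.11, edgeR adjusted p = 0.0174). The other falls, named after their values were seen, were of the GTPase gene Arf3 and the cargo lectin gene Lman2 (1.49-fold and 1.24-fold), lost in 4 and 5 of the 6 fits that left out a library. The delta subunit of COPI, Arcn1, which the rule did not take, overlapped between groups (-0.08 ± 0.16).

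**Figure D4:**
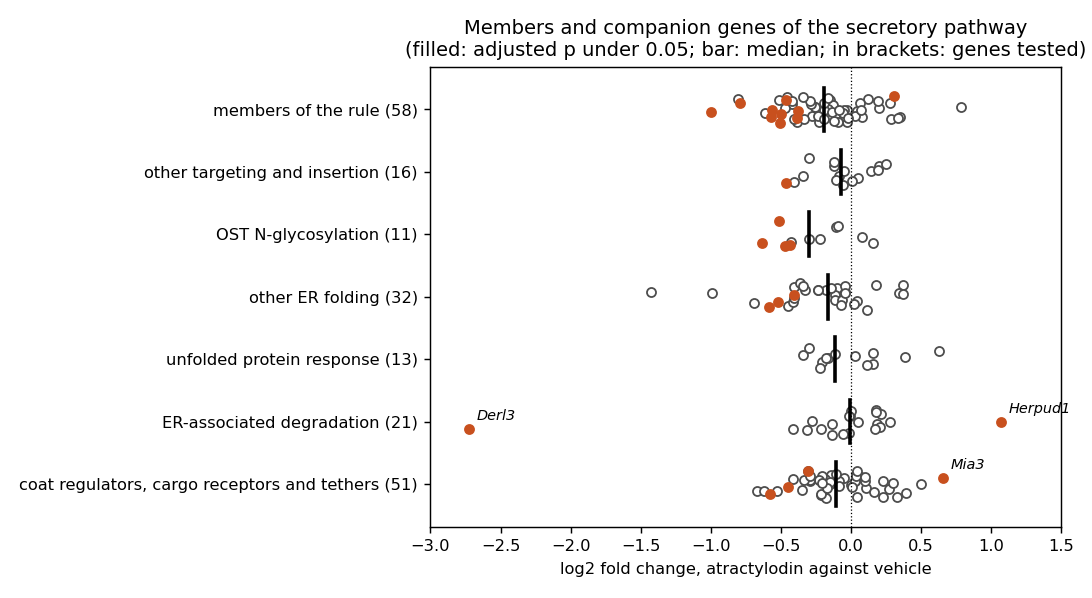
Log2 fold change (x axis) of each tested member and each tested gene of the 6 lists, with the median as a bar and filled points past an adjusted p of 0.05. The lists have medians from -0.30 for the oligosaccharyltransferase to -0.01 for ER-associated degradation, whose Derl3 lies lowest and whose Herpud1 lies highest of all points.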

How the data were processed

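Liver RNA of 3 vehicle and 3 atractylodin samples was sequenced as QuantSeq 3' libraries, per the labels' protocols. The authors deposited raw counts per gene symbol, without normalization. Bowtie2, bedtools and build mm10 are named in the submitters' processing notes. The annotation, strand setting and treatment of multi-mapping reads are not given in the sources used here, and 12 members shared bases with a same-strand gene and 24 with an opposite-strand gene (GENCODE M21, GRCm38, all 63 members matched).

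All 23282 rows, 44 of them repeated symbols, were read. After filterByExpr and TMM scaling, 12505 rows remained and went into edgeR's quasi-likelihood F-test with robust dispersion, version 4.0.16 (R 4.3.3), without covariates and with Benjamini-Hochberg adjustment over all of them at 0.05. SE was taken as the absolute log2 fold change over the root of the F statistic. Floors are 3 counts per library on TMM-scaled sizes and cover counting error only. Chi-square per degree of freedom between libraries was at least 2.75, so none was treated as a copy.

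Members and lists were chosen with earlier results of these data known. The rule for named genes took every called member, the 2 members of highest mean CPM per class, up to 2 called genes of smallest p per list, and 6 paralog pairs, 38 genes in all. Any other gene was picked for naming from its values.

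Alternatives were DESeq2 1.42.0, limma-voom (limma 3.58.1), RLE, upper quartile and total count scaling, fits with no filter or only rows whose CPM averaged 5 or more, a block for replicate number, and fits without 1 library in turn. On simulated counts of 12505 genes for this comparison, 66 of 100 genes changed 2-fold and 14 of 100 changed 1.5-fold were recovered, with 4 false calls of 84. Every simulated gene had the same spread between libraries (15%) beyond counting error. In the data the spread differed by gene and more rows were called (906), so these rates need not hold there. Protein sequences were not used here. Figures were drawn with matplotlib 3.10.9.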

Additional observations from a re-analysis of the deposited data

How the results depend on the processing

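No named gene that was called changed sign under any alternative, and the median of the members lay between -0.28 and -0.14 over the 14 alternatives. Members called lower numbered 9, with 16 under total counts and 16 without a filter, and 2 to 12 when 1 library was left out. Members called higher numbered 1, with 0 under limma-voom, upper quartile scaling and total counts, 2 without a filter, and 0 to 1 when 1 library was left out. Of the listed genes outside the rule 12 were called lower, with 21 under total counts, 19 without a filter, and 3 to 15 with 1 library left out, and 2 were called higher, with 4 without a filter. All called rows numbered 906, and 467 to 751 with 1 library left out. The cause of these changes was not tested, beyond fewer libraries where one was left out. With the replicate number as a block, 10 members fell and 1 rose, 13 listed genes fell and 3 rose, and 811 rows were called. Under this block Sar1b, Sec22c, Sec14l2, Ddost and Lman2 were not called. Sec24b was the member that rose (0.86), Pdia3, Pdia4, Ssr3, Hyou1, Sdf2l1 and Sep15 were called lower and Atf4 higher. Deviations of same-numbered libraries from their group means correlated at -0.03, -0.09 and 0.02 over rows, so the numbers were not taken as pairs, and not every library correlated best with its own number. Over 38 named genes, 52 of the alternative values, from 14 genes, lost a call and 18, from 4 genes, gained one. The 1831461 counts of vehicle 1 put its floor at 1.61 CPM, so members of a few CPM were measured least precisely there.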
